A study of Mus musculus with 6 samples.

Results

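The NR4A and EGR activation factors were taken as the 7 genes Nr4a1, Nr4a2, Nr4a3, Egr1, Egr2, Egr3 and Nab2, chosen by gene symbol, of 16588 genes in the deposited count table. All 7 had a row, and 6 passed the filter on low counts, the exception being Nr4a3. RNA was sequenced from group 2 innate lymphoid cells (ILC2s), tissue-resident lymphocytes that answer the epithelial cytokine IL-33 with type 2 cytokines. There were 3 libraries from mice whose genotype is given as C57BL/6 (wild type, WT) and 3 from mice labelled Cnr2 KO (the KO-labelled libraries), in which Cnr2, the gene of the cannabinoid receptor CB2, is named as knocked out. In both groups the mice had received 0.5 µg of recombinant mouse IL-33 by the nasal route on 3 days, lung cells were taken on day 4, and the sorted ILC2s were then kept in culture for 18 h. No unstimulated or freshly isolated ILC2s are among the samples used here, and the labels give neither the age of the mice nor how the Cnr2 allele was made. The comparison asked how activated ILC2s of these 2 genotypes differ.

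NR4A proteins are orphan nuclear receptors that bind DNA without needing a known circulating ligand, and EGR proteins are zinc finger transcription factors. Both families are immediate early genes: receptor signals acting through calcium, ERK kinases or cyclic AMP switch them on without new protein synthesis, and their transcripts are short-lived. NAB2 binds EGR proteins and represses their activity, and NAB2 is itself induced by EGR factors. In T cells both families are used as reporters of receptor strength and are linked to tolerance and exhaustion, and in lymphocytes more widely they are read as marks of recent activation.

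The libraries held 17867541 to 19399819 counts, except WT replicate 2 with 129617689. Cnr2 itself went against the label: its level was 3.99, 3.89 and 3.17 CPM (counts scaled to the library total) in the WT libraries and 7.55, 7.42 and 7.49 CPM in the KO-labelled libraries (log2 fold change 1.01, SE 0.16, edgeR adjusted p = 2.11e-05). With 1 value per gene, the table cannot show whether part of the transcript is missing, so the groups keep the names of their labels. ILC2 markers were present in every library (16 of 16 in the table, summed level 15040 to 15690 CPM in WT and 15140 to 16320 CPM in the KO-labelled libraries). Of these 16 genes, 12 were higher and 3 lower at an edgeR adjusted p under 0.05, against 33.1% and 33.2% of all tested genes. The largest part of the sum was Il5 (means 5285 and 5354 CPM), so similar sums do not show similar levels of each marker.

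Egr1 and its co-repressor partner Nab2 were higher in the KO-labelled libraries, whereas Nr4a1 was lower. Egr1 was 2.95-fold and Nab2 1.89-fold higher, and Nr4a1 was 1.73-fold lower. Egr2 was 2.15-fold lower, but that call was lost when single libraries were left out. Nr4a2 and Egr3 did not pass the test, and Nr4a3 was close to undetected. Of the 6 tested genes, 2 passed as higher and 2 as lower at an adjusted p under 0.05 (quasi-likelihood test of edgeR with Benjamini-Hochberg adjustment), and 2 did not. Among all 12150 genes tested, 33.1% were higher and 33.2% lower, 66.3% in all, so the share of these genes that was called, 66.7%, lies near that of genes in general. The 2 groups did not overlap for 3 of the 6 genes, Egr1 and Nab2 on the higher side and Nr4a1 on the lower, against 68.9% of all tested genes, 34.1% higher and 34.8% lower. What follows therefore concerns the size and direction for each gene rather than how many were called.

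**Figure D1:**
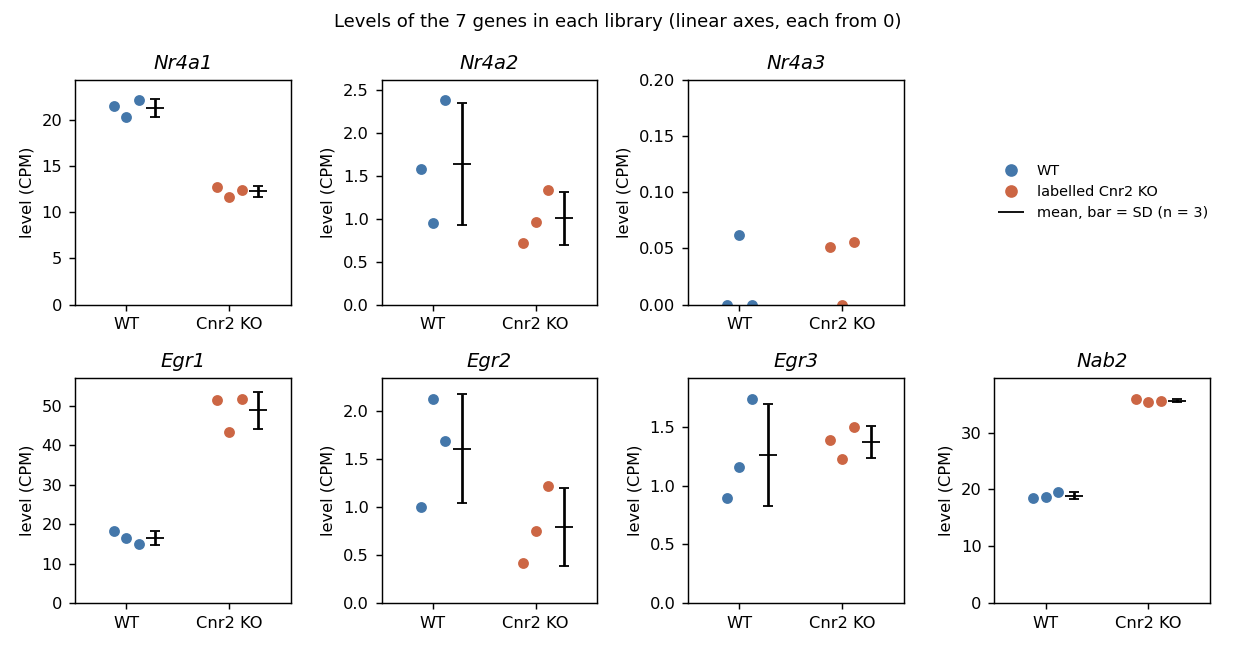
Level of each of the 7 genes (vertical axis, TMM-scaled CPM, linear from 0, a separate scale per panel) in the 3 WT libraries (blue) and the 3 KO-labelled ones (orange). Black marks are the mean and SD (n = 3), not drawn for Nr4a3, which is at 0 in 3 libraries. The groups separate in Nr4a1, Egr1 and Nab2 and overlap in the other panels.

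Among the nuclear receptors, Nr4a1 (ENSMUSG00000023034.7, chromosome 15, 101254269 to 101274795, plus strand, GRCm38) encodes NUR77, the member most used as a reporter of antigen receptor signalling. It was counted 408, 2612 and 418 times in the WT libraries (replicates 1, 2 and 3, the order kept below) and 247, 217 and 224 times in the KO-labelled libraries. Scaled for depth, its level was 21.4, 20.2 and 22.1 CPM in WT and 12.7, 11.6 and 12.4 CPM in the KO-labelled libraries. Every WT library was above every KO-labelled library, with a gap several times the spread within either group. The means were 21.3 ± 0.945 and 12.2 ± 0.572 CPM (SD, n = 3 each), and the log2 fold change was -0.79 (SE 0.10; edgeR, adjusted p = 6.44e-07). In bulk RNA, fewer cells that express a gene and less RNA per cell cannot be told apart.

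Nr4a2 (ENSMUSG00000026826.13, chromosome 2, 57106830 to 57124003, minus strand), which encodes NURR1, was counted 30, 123 and 45 times in WT and 14, 18 and 24 times in the KO-labelled libraries. These counts correspond to 1.58, 0.952 and 2.38 CPM in WT and 0.719, 0.961 and 1.33 CPM in the KO-labelled libraries. The groups overlapped, since the deepest library, WT replicate 2, lay below 2 libraries of the other group. The log2 fold change was -0.61 with a 95% interval of -1.45 to 0.23 (edgeR adjusted p = 0.19), which reaches from a decrease larger than that of Nr4a1 to a small increase. Without WT replicate 2 it was -0.98 and passed (edgeR adjusted p = 0.0492), the only alternative in which it did.

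Nr4a3 (ENSMUSG00000028341.9, chromosome 4, 48045153 to 48086447, plus strand), which encodes NOR1, had 0, 8 and 0 counts in WT and 1, 0 and 1 counts in the KO-labelled libraries. The 8 counts of WT replicate 2 correspond to 0.0619 CPM. A count of 0 allows up to 0.158 and 0.159 CPM in WT replicates 1 and 3 and 0.16 CPM in replicate 2 of the KO-labelled group, so a difference between the groups was not detectable at this depth. NR4A transcripts in these cells were thus nearly all from Nr4a1. Per length (CPM per kb of annotated exon, the scale used to compare different genes), Nr4a1 made up 93.8 ± 2.23% of the NR4A level in WT and 93.2 ± 1.91% in the KO-labelled libraries. The summed NR4A level per kb was 6.5, 6.01 and 6.88 in WT and 3.8, 3.54 and 3.88 in the KO-labelled libraries.

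Among the zinc finger factors, Egr1 (ENSMUSG00000038418.7, chromosome 18, 34859823 to 34864984, plus strand) is the member induced most broadly by growth factor and antigen receptor signals. It had 349, 2134 and 281 counts in WT and 1001, 812 and 936 counts in the KO-labelled libraries. Its level was 18.3, 16.5 and 14.8 CPM in WT and 51.4, 43.4 and 51.9 CPM in the KO-labelled libraries. The lowest KO-labelled library stood well above the highest WT library. The means were 16.6 ± 1.74 and 48.9 ± 4.79 CPM, and the log2 fold change was 1.56 (SE 0.09; edgeR, adjusted p = 2.14e-11). In size, this change was larger than that of 92.5% of all tested genes, against 76.0% for Nr4a1 and 81.1% for Nab2.

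Egr2 (ENSMUSG00000037868.15, chromosome 10, 67535475 to 67542188, plus strand), known from T cell anergy and from NKT cell development, went the other way from Egr1. It had 19, 275 and 32 counts in WT and 8, 14 and 22 counts in the KO-labelled libraries, or 0.998, 2.13 and 1.69 CPM against 0.411, 0.748 and 1.22 CPM. The highest KO-labelled library exceeded the lowest WT library, so the groups overlapped. The log2 fold change was -1.10 (SE 0.39, 95% interval -1.92 to -0.28, edgeR adjusted p = 0.0187). The call was lost without WT replicate 2 (edgeR adjusted p = 0.201), without replicate 1 (adjusted p = 0.111) or replicate 2 (adjusted p = 0.062) of the KO-labelled group, and in DESeq2 (adjusted p = 0.0551). Over the 14 alternatives that gave a value, the adjusted p lay between 6.96e-03 and 0.201 and the log2 fold change between -1.56 and -0.77.

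Egr3 (ENSMUSG00000033730.4, chromosome 14, 70077203 to 70082614, plus strand), which overlaps in function with Egr2 in T cells, had 17, 150 and 33 counts in WT and 27, 23 and 27 counts in the KO-labelled libraries. Its level was 0.893, 1.16 and 1.74 CPM in WT and 1.39, 1.23 and 1.5 CPM in the KO-labelled libraries. The 3 values of the second group lay inside the WT range. The log2 fold change was 0.14 with a 95% interval of -0.57 to 0.84 (edgeR adjusted p = 0.733), which does not exclude a change as large as that of Nr4a1 in the upward direction.

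The EGR family also differed in makeup between the groups. Summed per kb, it stood at 4.585, 4.575 and 4.205 in WT and at 11.9, 10.2 and 12.3 in the KO-labelled libraries. Egr1 made up 89.2%, 80.5% and 78.8% of this level in WT and 96.3%, 95.1% and 94.3% in the KO-labelled libraries, with no overlap. The share of Egr2 was 10.7 ± 3.79% in WT and 2.04 ± 0.961% in the KO-labelled libraries. That of Egr3, whose own level was not called, was 6.53 ± 2.58% and 2.72 ± 0.0651%. Both shares are taken of a sum that rose with Egr1, so they do not measure a loss of Egr2 or Egr3. The ratio of Egr1 to Nr4a1 per kb was 0.669, 0.639 and 0.526 in WT and 3.17, 2.93 and 3.27 in the KO-labelled libraries. Nr4a1 was thus above Egr1 in all 3 WT libraries and below it in all 3 of the others. These shares and ratios are descriptions of the 6 libraries and were not tested.

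**Figure D2:**
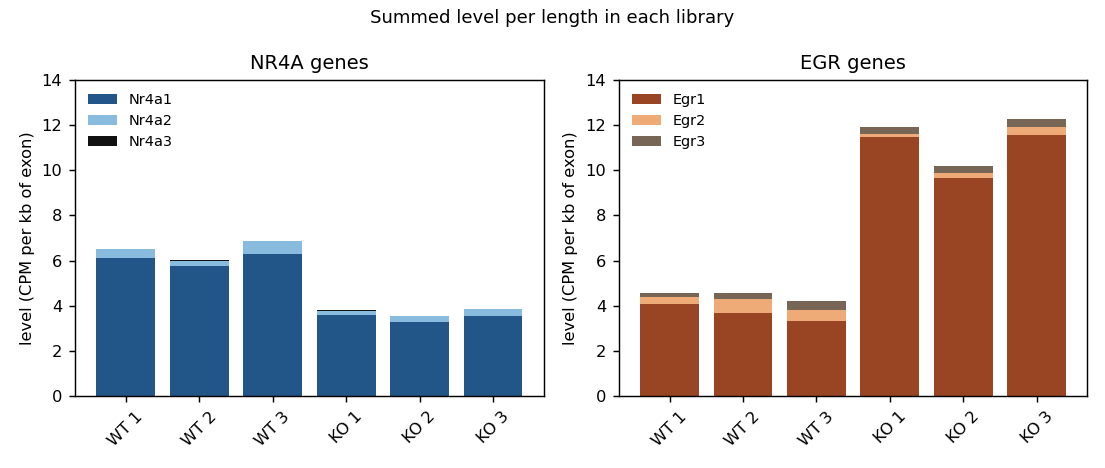
Level per length (CPM per kb of annotated exon, from 0) of the NR4A genes (left) and EGR genes (right), stacked by gene, in each of the 6 libraries (KO, the KO-labelled ones). Nr4a1 and Egr1 form most of each bar. NR4A bars are 6.01 to 6.88 in WT and 3.54 to 3.88 in KO, and EGR bars 4.205 to 4.585 and 10.2 to 12.3.

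Nab2 (ENSMUSG00000025402.12, chromosome 10, 127660918 to 127668568, minus strand) had 351.5, 2402 and 370.8 estimated counts in WT and 701, 663.7 and 639.8 in the KO-labelled libraries. Its level was 18.4, 18.6 and 19.6 CPM in WT and 36.0, 35.5 and 35.5 CPM in the KO-labelled libraries, the smallest relative spread among the 7 genes in the second group. The log2 fold change was 0.92 (SE 0.08, edgeR adjusted p = 4e-09). The ratio of Nab2 to Egr1 per kb was 1.53, 1.72 and 2.01 in WT and 1.07, 1.25 and 1.04 in the KO-labelled libraries, without overlap and without a test. The second co-repressor of the family, Nab1, was at 98.1 ± 5.17 and 109.9 ± 2.93 CPM, 1.12-fold higher (edgeR adjusted p = 0.016). Its call was lost without WT replicate 1 (edgeR adjusted p = 0.0533), WT replicate 3 (0.0838) or replicate 2 of the KO-labelled group (0.0731). Per kb, Nab1 exceeded Nab2 by 3.73 ± 0.295 times in WT and 2.21 ± 0.0666 times in the KO-labelled libraries.

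Nab2 is the only one of the 7 genes that the annotation places over other genes, all on the opposite strand. The antisense gene Gm16229 shares 35.7% of the Nab2 exon bases, Nemp1 5.13% and Stat6 1.36%. The counting is not stated to use strand, so shared reads cannot be assigned. Gm16229 was at 0.098 ± 0.0977 and 0.0363 ± 0.0314 CPM, Nemp1 at 24.3 ± 3.15 and 31.4 ± 3.76 CPM and Stat6 at 202.7 ± 9.83 and 222.4 ± 4.75 CPM. The fold difference was 1.28 for Nemp1 and 1.1 for Stat6 (the latter not called without WT replicate 2, edgeR adjusted p = 0.129, or replicate 1 of the KO-labelled group, 0.059), both smaller than that of Nab2, and how far shared reads enter the Nab2 value was not tested.

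Ordered by level per kb, WT libraries had Nab2 (6.42 ± 0.215) and Nr4a1 (6.055 ± 0.269) first, whose ranges overlapped, followed by Egr1 (3.695 ± 0.389). In the KO-labelled libraries, Nab2 (12.1 ± 0.103) was followed by Egr1 (10.9 ± 1.07) and then Nr4a1 (3.49 ± 0.163), with no overlap between neighbours. Egr2, Nr4a2 and Egr3 lay between 0.233 and 0.473 on the mean in both groups, and neighbours among them overlapped. Nr4a3 was last in both. With the length of the longest transcript in place of all exons, Nr4a1 (8.32 ± 0.370) stood above Nab2 (7.31 ± 0.245) in WT, and the order of the others was unchanged.

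**Figure D3:**
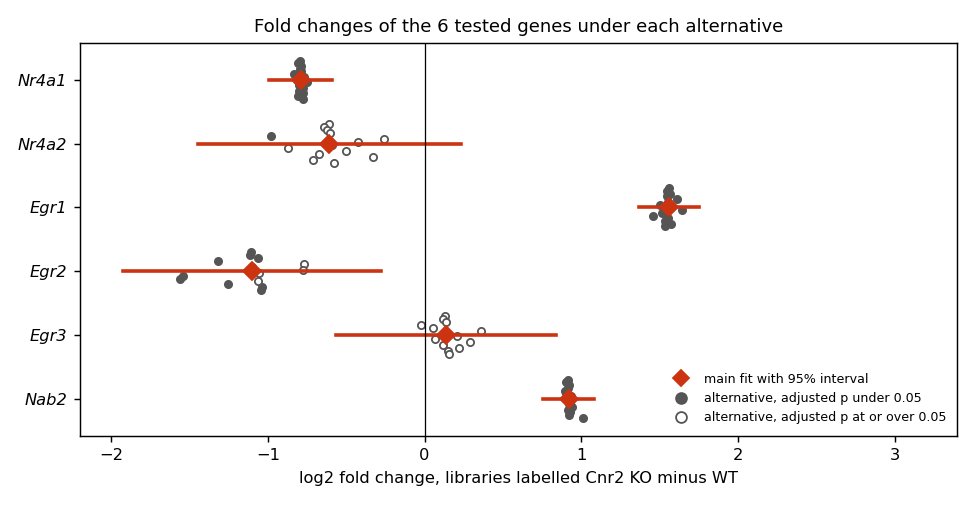
Log2 fold change (horizontal axis, libraries labelled Cnr2 KO minus WT) of the 6 tested genes. Red diamonds and lines are the estimate and 95% interval of the edgeR fit, and circles are the alternatives, filled where the adjusted p was under 0.05. Nr4a1, Egr1 and Nab2 keep direction and call in all 15 alternatives, whereas the circles of Egr2 and Nr4a2 are mixed and those of Egr3 lie near 0.

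The 250 bases before the transcription start were read from RefSeq (GRCm38.p6) for Nr4a1, Nr4a2, Nr4a3, Egr2 and Nab2, and the windows of Nr4a1, Nr4a2 and Egr2 are shown to place the motifs searched. The promoters of Egr1 and Egr3 were not analysed here, so the matches do not compare genes that were higher with genes that were lower. Capitals mark matches, on either strand, to the core of the cyclic AMP response element (TGACG), the full element (TGACGTCA), the CArG box bound by SRF, an EGR site (GCGNGGGCG) and the NR4A monomer site (AAAGGTCA). Egr2 has 5 windows in the table, 2 of them without annotated exon bases, and of those the one with more matches is shown, a choice made after the matches were seen.
Nr4a1, chr15:101266596-101266845, plus strand: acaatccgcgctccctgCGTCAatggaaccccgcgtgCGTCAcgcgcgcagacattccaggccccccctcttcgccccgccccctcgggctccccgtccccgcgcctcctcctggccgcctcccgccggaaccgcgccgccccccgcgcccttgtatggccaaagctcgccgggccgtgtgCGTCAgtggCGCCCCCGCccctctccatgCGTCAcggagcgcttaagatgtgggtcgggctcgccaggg
Nr4a2, chr2:57124004-57124253, minus strand: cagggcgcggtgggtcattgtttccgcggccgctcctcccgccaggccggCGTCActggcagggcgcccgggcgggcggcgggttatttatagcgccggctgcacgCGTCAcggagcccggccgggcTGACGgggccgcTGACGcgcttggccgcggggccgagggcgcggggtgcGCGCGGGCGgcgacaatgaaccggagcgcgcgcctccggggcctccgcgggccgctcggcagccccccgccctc
Egr2, chr10:67537619-67537868, plus strand: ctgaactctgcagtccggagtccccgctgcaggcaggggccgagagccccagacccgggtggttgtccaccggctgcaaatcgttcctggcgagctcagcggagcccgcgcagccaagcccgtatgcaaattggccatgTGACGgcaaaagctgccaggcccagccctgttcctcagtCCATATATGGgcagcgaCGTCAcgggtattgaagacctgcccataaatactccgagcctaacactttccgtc

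Nr4a1 and Nr4a2 each had 4 matches to the TGACG core in this window and 1 EGR site. In Nr4a1 the cores began at -233, -213, -69 and -40 from the start, with the EGR site at -60 between the last 2 of them. In Nr4a2 they began at -200, -144, -123 and -111, with the EGR site at -74. The Egr2 window had 2 cores, at -111 and -55, on either side of a CArG box at -72. Of the other 4 Egr2 windows, the first along the chromosome held no match and the second a CArG box alone, and the last 2 overlap the one shown and hold the same 3 matches. None of these 3 windows held the full element or the NR4A monomer site. Among all 32851 windows of the same length in the table, 17.8% held the core, 1.55% the full element, 1.47% a CArG box, 4.7% the EGR site and 1.34% the NR4A monomer site. The core is contained in the full element, and these matches describe the letters only. The Nab2 window held no match to any of the 5 motifs, and the Nr4a3 window held 4 cores. Both windows run into annotated exon, with 60 exon bases in that of Nab2 and 152 in that of Nr4a3, and are not shown.

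The partners and the upstream genes were described from lists of genes, by counts and medians, against 33.1% higher and 33.2% lower and a median log2 fold change of 0.01 over all 12150 tested genes. Among the retinoid X receptors, with which NR4A1 and NR4A2 can form heterodimers, Rxra was 1.26-fold higher and Rxrb 1.41-fold lower. Rxrg had 2, 13 and 0 counts in WT and 63, 54 and 77 in the KO-labelled libraries, or 0.0686 ± 0.0594 and 3.46 ± 0.72 CPM. It was 38.6-fold higher (edgeR adjusted p = 7.59e-09), from a level near the limit of detection. Of the 6 genes of this list, which also holds Nab1, 4 were tested, and Egr4 and Wt1 were not analysed here.

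Of 17 genes of the ERK and SRF route, through which EGR genes are classically induced, 7 were higher, 6 lower and 4 did not pass, with a median log2 fold change of 0.03. Mapk3, which encodes the kinase ERK1, rose from 24.8 ± 0.3 to 55.8 ± 2.49 CPM, and Mrtfa, a co-activator of SRF, from 40.8 ± 0.913 to 77.7 ± 1.18 CPM. Srf itself fell from 116 ± 4.6 to 62.9 ± 2.64 CPM. The 3 genes had edgeR adjusted p-values of 9.75e-11 or lower. How these transcript levels relate to that of Egr1 was not tested.

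Of 15 genes of the CREB route, a cyclic AMP pathway known to induce NR4A genes, 10 passed as higher and 5 as lower (median 0.27). Crem, whose products include both activators and the inducible repressor ICER, fell from 128.8 ± 14.3 to 50.2 ± 3.1 CPM (edgeR adjusted p = 6.86e-12). Prkacb, a catalytic subunit of protein kinase A, rose 1.83-fold and Crtc3, a CREB co-activator, 1.92-fold. The related co-activators differed in direction. Crtc1 was 1.28-fold higher, whereas Crtc2, more abundant than Crtc3 in both groups, fell from 66.4 ± 2.58 to 43.9 ± 2.75 CPM (edgeR adjusted p = 2.2e-07). With an offset for GC content and length, 6 genes of the CREB route rather than 10 passed as higher. Of 15 tested genes of the calcium, NFAT and MEF2 route, 9 passed as higher and 3 as lower (median 0.285). Nfatc1, a calcium-dependent transcription factor, was 1.66-fold, Ppp3ca, a catalytic subunit of calcineurin, 1.75-fold and Camk2d, a calcium-dependent kinase, 1.69-fold higher (edgeR adjusted p of 5.17e-09 or lower for each). The other catalytic subunit listed, Ppp3cb, went the other way, from 53.1 ± 5.49 to 41.8 ± 3.0 CPM (edgeR adjusted p = 0.000755). The regulatory subunit Ppp3r1 did not pass.

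Other immediate early genes did not move as a block either. Of 36 tested genes, 12 passed as higher and 15 as lower, and 9 did not pass, with a median of -0.18. Dusp6, the phosphatase that acts on ERK, rose from 89.1 ± 0.632 to 580.1 ± 10.8 CPM, in the direction of Egr1. Junb fell from 657.5 ± 40.8 to 133.2 ± 9.68 CPM and Myc from 323.4 ± 24.5 to 91.3 ± 3.37 CPM, in the direction of Nr4a1. The edgeR adjusted p-values of these 3 were 3.05e-15 or lower.

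Genes linked to EGR factors in T cells, a mixed list of anergy, cell cycle, cytokine signalling and adhesion genes, had 20 of 25 members tested (Lag3, Nrn1, Crtam, Ccl1 and Fasl were not). Of these 20 genes, 12 passed as higher and 5 as lower, and 3 did not pass, with a median of 0.54. Rnf128, the anergy ubiquitin ligase GRAIL, rose from 168.5 ± 4.72 to 825.1 ± 26 CPM. Dgka, a diacylglycerol kinase that limits receptor signals, rose from 41.3 ± 2.53 to 111.5 ± 8.79 CPM, and Id3, an inhibitor of E proteins, from 9.54 ± 0.945 to 48.1 ± 4.13 CPM. Among the 5 lower genes, Ndrg1 fell from 26.9 ± 1.37 to 15.9 ± 3.72 CPM and Socs3 from 288.2 ± 12.25 to 134.1 ± 17.05 CPM (edgeR adjusted p of 1.9e-05 or lower for each). Dgkz, a second diacylglycerol kinase, did not pass. Genes linked to NR4A factors in T cells went both ways, with 8 of 18 tested genes (of 21 listed, without Lag3, Cd5 and Izumo1r) higher, 7 lower and a median of 0.24. Batf fell from 271.8 ± 19.4 to 59.2 ± 1.53 CPM and Irf4 from 309.2 ± 19.3 to 60.0 ± 7.69 CPM, both transcription factors of activated lymphocytes, whereas Gata3, which specifies type 2 lymphocytes, rose 3.72-fold. The edgeR adjusted p-values of Rnf128, Dgka, Id3, Batf, Irf4 and Gata3 were 8.72e-13 or lower. These lists come from T cell biology, so they name links known there and not targets shown in ILC2s.

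**Figure D4:**
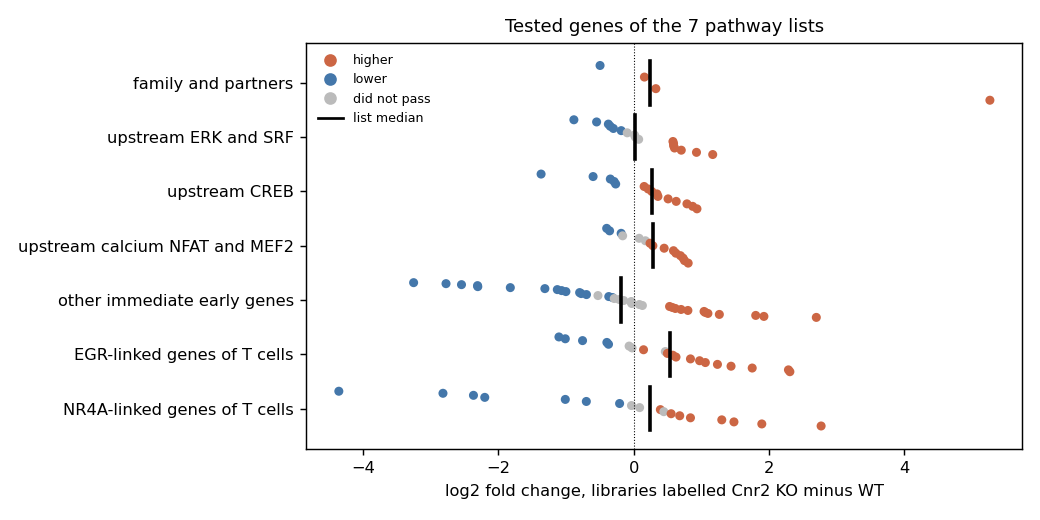
Log2 fold change (horizontal axis, libraries labelled Cnr2 KO minus WT) of each tested gene in the 7 lists of partners, upstream genes and linked genes, ordered by size within a list. Orange points passed as higher, blue as lower, grey did not pass, and the black line is the list median, from -0.18 for other immediate early genes to 0.54 for the EGR-linked genes.

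The genes whose values most resembled each of the 6 tested genes were sought among 9082 genes with a mean of at least 5 CPM, by the root mean square difference of log2 CPM centred over the 6 libraries. Scarb1 (0.0305) and Prpsap1 (0.0364) were closest to Nr4a1, Lpin2 (0.0498) and Smpdl3a (0.0715) to Egr1, and Cnp (0.0242) and Nucb1 (0.0276) to Nab2. The low-count genes had no such close neighbours: the nearest lay at 0.268 for Nr4a2 (Arv1, then Cep290), 0.336 for Egr2 (Styx, then Mrpl32 at 0.377) and 0.1345 for Egr3 (Ccnyl1, then Ccdc130 at 0.147). Genes with levels as low as theirs were not searched, and the part of counting noise in these distances was not tested.

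**Figure D5:**
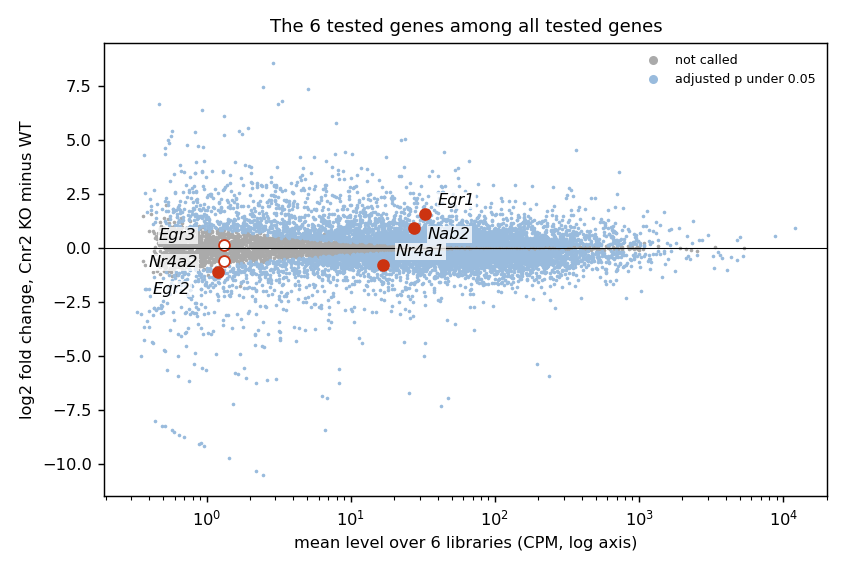
Log2 fold change (vertical axis, libraries labelled Cnr2 KO minus WT) against mean level (horizontal axis, CPM, log scale) of the 12150 tested genes, blue where the adjusted p was under 0.05. Red circles are the 6 named genes, filled where called. Egr2, Egr3 and Nr4a2 lie at the low end, near 1 CPM.

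Summed marker levels of other cell types were compared too. In 8 of 11 lists the summed level was higher in every KO-labelled library than in every WT library, in 1 it was lower and in 2 the groups overlapped (exact permutation p = 0.1 for each of the 9, two-sided, the smallest possible with 3 against 3, and 0.133 after Benjamini-Hochberg adjustment over 12 lists). T cell markers (8 of 12 in the table, with Cd4, Cd8a, Cd8b1 and Cd5 not analysed here) summed to 67.7 to 70.6 CPM in WT and 116.3 to 124.9 CPM in the KO-labelled libraries. B cell markers (2 of 6) summed to 19.4 to 21.0 and 52.3 to 55.7 CPM, and granulocyte and mast cell markers (6 of 12, mostly Kit) to 96.9 to 107.1 and 169.2 to 185.2 CPM. Macrophage markers (4 of 8, with Adgre1 at 0 in a group) summed to 1.1 to 2.18 and 3.44 to 6.49 CPM, dendritic cell markers (6 of 9, with Batf3 at 0 in a group) to 30.0 to 33.9 and 37.7 to 44.4 CPM and endothelial markers (2 of 6, mostly Pecam1) to 106.0 to 114.4 and 39.3 to 40.3 CPM. ILC3 markers (6 of 8, mostly Ahr, with Il17a, Il17f and Il22 at 0 in a group) summed to 14.18 to 15.96 and 37.9 to 42.2 CPM, epithelial markers (4 of 7, mostly Epcam, with Krt8 at 0 in a group) to 12.6 to 27.1 and 45.7 to 51.6 CPM and erythroid markers (2 of 6) to 0.735 to 1.27 and 5.13 to 6.27 CPM. Genes within a list did not all go the way of its sum. In the dendritic list 1 gene was called higher and 1 lower of 3 tested, and its most abundant member, H2-Ab1, had means of 19.4 and 17.4 CPM and was not called. Lists also held calls in both directions for T cells (4 higher and 1 lower of 7 tested), ILC3 (1 and 2 of 4), granulocytes and mast cells (3 and 1 of 4) and epithelium (1 and 1 of 2). NK cell markers (56.8 to 77.7 and 46.1 to 59.8 CPM) and fibroblast markers (2.08 to 10.2 and 3.16 to 12.6 CPM) overlapped. The part of such cells in the levels of Egr1, Nab2 and Nr4a1 was not tested.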

How the data were processed

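The deposited table gives expected counts, estimated reads per gene and library that need not be whole (58.89 to 79.78% of values above 0 lay within 0.02 of a whole number), with totals that differ between libraries. The build mm10 and the tools STAR 2.7.8, Partek 10.0 and DESeq2 are named, with no role, in the submitters' processing notes. The counting method and how strand was treated were not given in the sources used here. The series title names adipose tissue, whereas the sample labels name lung. The labels' protocols give 10 pg of RNA as the input of cDNA synthesis by a low-input kit.

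Counts were rounded and tested with edgeR 4.0.16 in R 4.3.3 (quasi-likelihood, TMM, filterByExpr with minimum count 10 and total 15, genotype as the only term), over 12150 of 16588 genes. The fit was also run on simulated counts with 200 changed genes. That is far fewer than the 8053 called here, so the simulation does not check the calls under so wide a change. Adjusted p-values are Benjamini-Hochberg over all tested genes, and those under 0.05 were called. Levels are TMM-scaled CPM. The SE is the absolute log2 fold change divided by the square root of F. Lengths and positions are from GENCODE M21 (GRCm38), which 16233 symbols matched, 16140 with the same start.

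The members and lists were chosen with earlier results of these data known. Genes named from each list were the 3 with the smallest p, and 2 genes of most similar pattern were named per member. Whether replicates are separate animals or cultures is not in the labels, and p-values therefore reflect the spread of these 6 samples, possibly technical, and nothing wider. Pairs within a group exceeded sampling noise (chi-square of 4.15 to 8.07 per gene), and each library was 1 replicate. Limits from a count of 0 take 3 counts and cover counting error only. Alternatives were DESeq2 1.42.0, limma-voom 3.58.1 with quality weights, DESeq2 size factors, other filters, a replicate block and thinning of WT replicate 2. Others were an offset for GC content and length, leaving out each library and, chosen after seeing the data, leaving out replicate 3 of both groups. The longest transcript length was an alternative for levels, shares and ratios per kb only.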

Additional observations from a re-analysis of the deposited data

How the results depend on the processing

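Nr4a1, Egr1 and Nab2 kept their direction and call in 15 of 15 alternatives, with log2 fold changes of -0.83 to -0.75, 1.455 to 1.64 and 0.90 to 1.01. The other 3 tested genes had low counts, and whether this made their calls unstable was not tested. Egr2 lost its call in DESeq2 (log2 fold change -1.07, adjusted p = 0.0551) and ranged from -1.54 to -0.77 when single libraries were left out, with its largest adjusted p (0.201) without WT replicate 2, the deepest library. Nr4a2 ranged from -0.98 to -0.26 and Egr3 from -0.02 to 0.36 over the libraries left out, and Egr3 turned to -0.023 without WT replicate 1. The count of these genes called lower was 1 rather than 2 with the stricter filter (at least 50 counts in 3 libraries, which removed Nr4a2, Egr2 and Egr3 and gave no value for them) and in DESeq2, and 1 to 2 over the libraries left out. Without WT replicate 2 it was still 2, with Nr4a2 in the place of Egr2. With the GC and length offset, 6 rather than 10 genes of the CREB route were higher. Of 32 other named genes, 29 had the same call in every alternative run on them (that without both libraries numbered 3 was not), the exceptions being Nab1, Stat6 and Pdcd1. With the longest transcript as length, the summed NR4A level per kb was 8.78 in WT and 5.08 in the KO-labelled libraries, the ratio of Egr1 to Nr4a1 0.445 and 2.27, that of Nab2 to Egr1 1.998 and 1.275, the share of Egr3 3.02% in the KO-labelled libraries and the ratio of Nab1 to Nab2 there 2.055, since the lengths themselves changed. Deviations of libraries with the same number correlated at 0.0656, 0.00571 and 0.0429 for numbers 1, 2 and 3, against -0.0678 to 0.0293 for unlike numbers. No pair exceeded 0.1, and pairing was not assumed. These correlations do not settle it, since 4 of 6 libraries correlated best with their own number. The highest value, 0.0656, also belonged to libraries with the same number. Both libraries numbered 3 have library numbers apart from the other 4 in the labels. Without both, an alternative chosen after seeing the data, 3642 genes were higher and 3824 lower, the 6 tested genes had the same calls (Egr2 at -1.56), and 1 rather than 3 of the partner genes was higher, with Nab1 and Rxra no longer called. With the replicate block, 4061 genes were higher and 4113 lower against 4019 and 4034 without it, and the log2 fold changes were -0.80 for Nr4a1, -0.625 for Nr4a2, 1.54 for Egr1, -1.07 for Egr2, 0.14 for Egr3 and 0.92 for Nab2, with the same calls.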

Other observations

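Some listed genes outside the rule for named genes are given here, chosen after their values were seen. Fos, another immediate early gene, rose from 10.4 ± 0.23 CPM in WT to 36.1 ± 0.446 CPM in the KO-labelled libraries, by 1.81 on the log2 scale (SE 0.08, edgeR adjusted p = 7.17e-13). Its partner Jun fell from 31.6 ± 0.304 to 14.4 ± 1.44 CPM (log2 fold change -1.13, edgeR adjusted p = 1.79e-09), and Gadd45b, a stress-response gene, from 47.0 ± 2.14 to 4.905 ± 1.04 CPM (log2 fold change -3.25, edgeR adjusted p = 1.38e-14).

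Among inhibitory receptors in the list linked to NR4A factors, Ctla4 fell 20.5-fold, from 44.5 ± 6.14 CPM in WT to 2.19 ± 0.488 CPM in the KO-labelled libraries, and Tigit at 21.7 ± 1.48 and 3.09 ± 0.496 CPM, 7.06-fold lower. Havcr2, which encodes TIM-3, went the other way, at 0.906 ± 0.329 and 5.565 ± 0.454 CPM, and Pdcd1, which encodes PD-1, was 1.15-fold lower, a call lost with the offset for GC content and length (edgeR adjusted p = 0.068). The edgeR adjusted p-values of these 4 genes were 0.00176 or lower (n = 3 libraries per group).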
